A study of Mus musculus with 6 samples.

Results

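The genes described here are 10 secreted proteins of the extracellular matrix: the thrombospondins Thbs1, Thbs2, Thbs3, Thbs4 and Comp, the tenascins Tnc and Tnxb, periostin (Postn), Cilp and Cthrc1. They were taken by gene symbol from a table of 21671 named genes. All 10 symbols were in the table and all 10 passed the filter on low counts, with 14809 genes tested in all. Cthrc1 (0, 0 and 4 untreated counts) and Thbs4 (11, 6 and 29) passed the filter only through the doxycycline libraries. Their entry into the test thus depended on the group in which they are high. The genes were selected on their measured difference between the study's 2 groups of libraries and on the order of the doxycycline libraries, so both are given for them as a description and support nothing by themselves.

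RNA was measured by ribosome-depleted sequencing in subcutaneous tumours of homozygous CD1 nude mice, an athymic strain that lacks mature T cells. The mice had been injected with transformed hepatoblasts that carried the vector TtRMPVIR shST18, in which doxycycline induces a hairpin RNA directed at the zinc finger gene St18. The 3 untreated libraries carry the genotype label wild type. The 3 doxycycline libraries carry the label ST18 knockdown and come from mice killed 4 h after oral gavage with 300 µl of doxycycline at 200 mg/ml in water. No group received doxycycline without the hairpin, or gavage without the drug, so drug, gavage and hairpin cannot be told apart. The labels do not tie libraries to animals, so the spread behind each p-value is that between libraries and may be technical. Tumour cells and host cells are both from the mouse, and reads of the grafted cells and of the host's stroma are counted together.

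Totals ran from 12090309 to 16169043 counts per library. St18 itself had 12, 23 and 19 counts in the untreated libraries against 34, 12 and 61 in the libraries labelled ST18 knockdown. Its log2 fold change was 1.03 (SE 0.55, edgeR adjusted p = 0.298), so the targeted gene was not lower there. Of the hepatoblast and biliary markers, Krt18 had 722 to 1162 counts per library and Foxa2 had 65 to 190. The liver genes Alb (0 to 2 counts) and Afp (6 to 20 counts) were nearly absent.

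Most of these proteins are called matricellular: they sit in the matrix and signal to cells, but do not build its main fibres. Thrombospondins bind calcium and assemble into multimers. Thbs1 and Thbs2 form trimers with repeats that bind the receptor CD36 and restrain blood vessel growth, and Thbs1 can activate latent TGF-beta. Thbs3, Thbs4 and Comp form pentamers, with Thbs4 and Comp best known from tendon, cartilage and muscle attachment. Tnc appears in healing wounds and tumour stroma, Tnxb stabilises collagen in skin and tendon, and Postn binds integrins and collagen and is made by activated fibroblasts. Cilp is a matrix protein first described in cartilage, and Cthrc1 is a secreted protein of injured vessels and activated fibroblasts.

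In the untreated tumours the levels of the 10 genes spanned a wide range. Levels of different genes are compared here as CPM per kb, which is the library-scaled count (CPM) divided by the exonic length in kb. Tnc (21.1 ± 0.0516, SD, n = 3) and Thbs1 (20.5 ± 5.13) were the highest, and their ranges over the libraries overlapped. Thbs2 (6.20 ± 0.683) and Thbs3 (5.50 ± 0.561) followed, again with overlapping ranges. Tnxb (1.74 to 2.16 over the 3 libraries), Postn (1.72 ± 0.430) and Cilp (1.17 ± 0.249) came next, each overlapping its neighbour. Comp, at 0.785 ± 0.117 CPM per kb, stood apart from Cilp above it and from Thbs4 below it. Thbs4 (0.321 ± 0.247) and Cthrc1 (0.0564 ± 0.0978) were the lowest, with overlapping ranges. This order does not use the doxycycline libraries.

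After doxycycline the order changed in its lower part. Tnc (29.2 ± 7.69 CPM per kb) and Thbs1 (23.4 ± 6.86) were still the 2 highest. Cilp moved from the seventh to the third place (15.3 ± 2.87), followed by Thbs2 (14.7 ± 1.66), Postn (12.6 ± 4.92) and Thbs4 (9.24 ± 7.78). Comp (1.57 ± 0.544) was the lowest of the 10. In this group the ranges of neighbours in the order overlapped in every case but that of Thbs3 (8.44 ± 1.63) and Tnxb (4.25 ± 1.82).

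**Figure D1:**
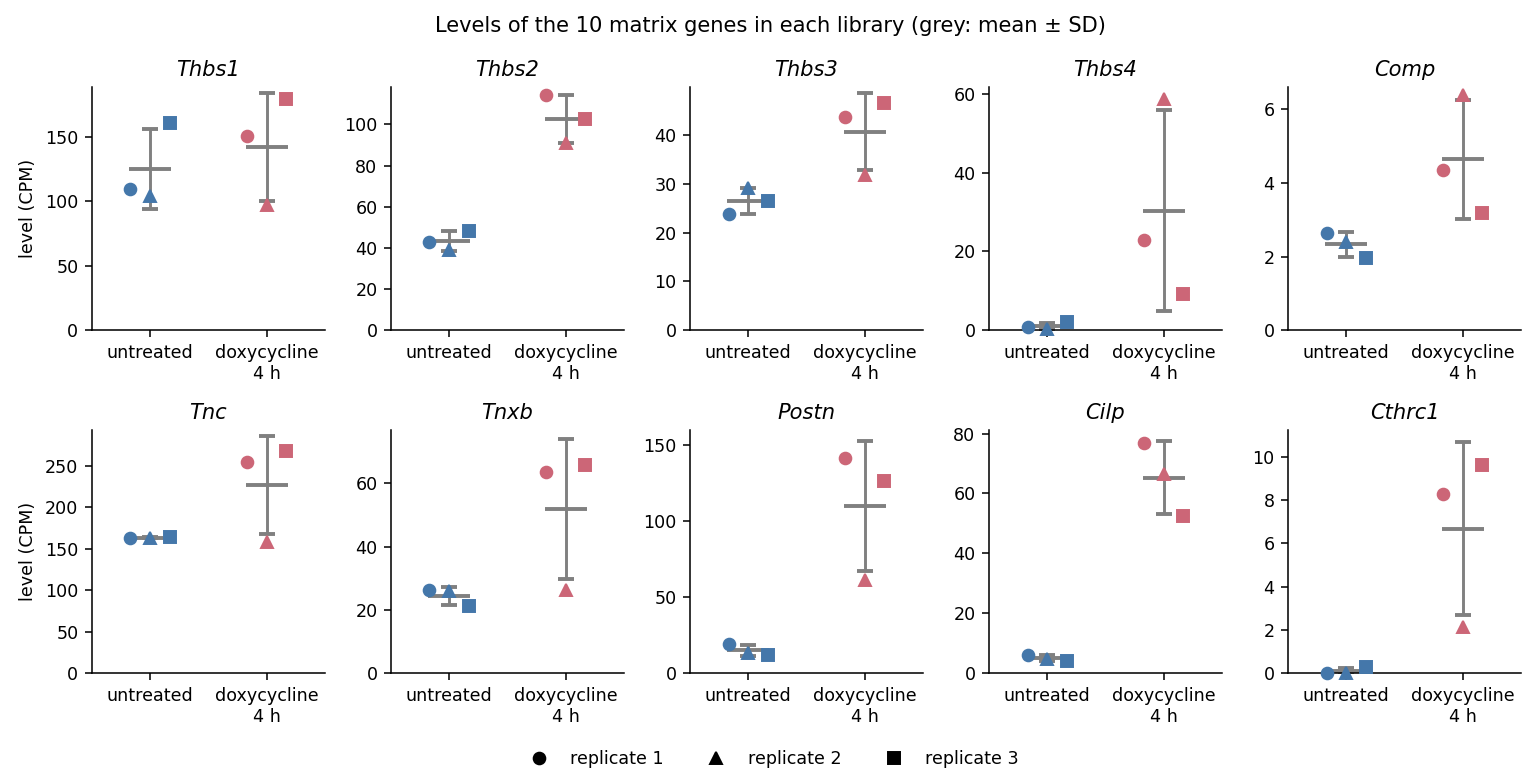
Each panel plots 1 gene as CPM (linear axis from 0) in the 3 untreated and the 3 doxycycline libraries, with the symbol marking the replicate number and grey bars the mean ± SD. Cilp, Postn, Thbs2, Thbs4 and Cthrc1 lie apart between the groups, and Thbs1, Tnc and Tnxb overlap. In these 3 genes doxycycline replicate 2 (triangle) lies among or below the untreated libraries, and for Thbs1 doxycycline replicate 1 also lies below untreated replicate 3.

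Between the groups, all 10 genes had a positive log2 fold change (doxycycline over untreated), with a median of 1.16 against 0.00775 over all genes tested. In edgeR's quasi-likelihood test adjusted over all genes, Thbs2, Thbs4, Postn, Cilp and Cthrc1 passed as higher, which is 5 of 10, while 2.84% of all genes tested passed as higher. None passed as lower in edgeR, where 0 were lower at an unadjusted p under 0.05, or in DESeq2 or limma-voom, against 2.18% of all genes in edgeR. In 7 of 10 genes every doxycycline library lay above every untreated one, which was the case for 15.2% of all genes tested. Under other fits the members' count is likewise read beside its background: 7 with DESeq2 (5.99% of all genes), 4 with limma-voom (1.69%), 4 with no filter on low counts (2.15%), 4 with the replicate number as a block (1.45%) and 7 with offsets for GC content and length (2.04%). Leaving out 1 library gave 2 without untreated replicate 1, 2 or 3 (0.0721%, 0.179% and 0.0924%), 3 without doxycycline replicate 1 (1.19%), 8 without replicate 2 (8.18%) and 4 without replicate 3 (1.06%). Because the contrast chose the genes, nothing is read from these shares.

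The RefSeq promoter table (build GRCm38.p6) had an entry for 7 of the 10 genes; Thbs1, Comp and Cthrc1 were not matched. Shown here are the 100 bases just upstream of the annotated start for Thbs2, Thbs4, Postn and Cilp, the 4 genes with an entry that passed as higher. Each is printed 5′ to 3′ on the gene's own strand, with motif matches in capitals. For Postn the second of its 2 annotated starts is shown. The first held no match to any motif searched.
Thbs2, chr17:14694263-14694362, minus strand: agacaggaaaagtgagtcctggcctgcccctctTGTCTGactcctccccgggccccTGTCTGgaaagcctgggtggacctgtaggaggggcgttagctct
Thbs4, chr13:92794819-92794918, minus strand: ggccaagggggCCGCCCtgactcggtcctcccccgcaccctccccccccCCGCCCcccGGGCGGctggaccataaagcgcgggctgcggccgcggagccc
Postn, chr3:54361007-54361106, plus strand: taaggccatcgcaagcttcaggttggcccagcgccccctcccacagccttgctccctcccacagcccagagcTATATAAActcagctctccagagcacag
Cilp, chr9:65265080-65265179, plus strand: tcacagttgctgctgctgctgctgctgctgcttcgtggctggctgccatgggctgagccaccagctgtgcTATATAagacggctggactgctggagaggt

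The motifs were searched on both strands in the 250 bases upstream of each annotated start. Postn, at the start shown, and Cilp hold TATA box letters (TATAAA or TATATA, which can overlap each other). These lie 28 to 21 and 30 to 25 bases before the start. Of 32817 promoter windows of this length, 15.6% hold such a match. Tnc, which did not pass and is not printed, holds TATATA 29 to 24 bases before its second annotated start. Thbs2 has TTTATA, the same motif on the other strand, farther up, 126 to 121 bases before its start. Thbs4 holds 3 GC boxes (GGGCGG or its complement CCGCCC), a motif present in 32.7% of windows. Thbs2 holds 2 matches to the Smad site CAGACA, read here as TGTCTG (17.1% of windows). Thbs4 holds 1 such match, and 2 overlapping matches to the TEAD site GGAATG (12.6% of windows), all upstream of the printed stretch. Of the 4 promoters none matched the AP-1 site TGACTCA or TGAGTCA (4.46% of windows) or the MEF2-type site (0.14%). The matches are descriptions of letters and not of binding, and no motif searched was found in all 4.

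Cilp and Thbs2 passed in every fit tried. Cilp was at 6.12, 4.71 and 4.05 CPM in the untreated libraries (replicates 1, 2 and 3, in this order throughout) against 76.7, 66.6 and 52.4 CPM in the doxycycline libraries. The lowest doxycycline library lay 8.57 times above the highest untreated one. Its log2 fold change was 3.72 (SE 0.21, 95% interval 3.23 to 4.21). Thbs2 was at 43.0, 38.9 and 48.4 CPM without and at 114, 91.0 and 103 CPM with doxycycline. Its groups lay apart too, by a factor of 1.88 between the nearest libraries, and its log2 fold change was 1.24 (SE 0.12, interval 0.96 to 1.52). The highest and lowest doxycycline libraries differed 1.46-fold for Cilp and 1.26-fold for Thbs2. These were the only 2 of the 10 genes that passed in all 12 alternative fits, including each that left out 1 library.

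Postn was at 19.2, 13.4 and 12.2 CPM in the untreated libraries and at 142, 61.2 and 127 CPM in the doxycycline libraries. All 3 doxycycline libraries were above the untreated ones, and doxycycline replicate 2 was the lowest of its group. In log2 terms the fold change came to 2.88 (SE 0.32, interval 2.15 to 3.61). Leaving out an untreated library ended its call (log2 fold change 3.10, 2.79 and 2.75 without replicates 1, 2 and 3; edgeR adjusted p 0.0519, 0.0633 and 0.0845).

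Cthrc1 was almost unread in untreated tumours, with 0, 0 and 4 counts, and had 99, 31 and 154 counts after doxycycline. That is 0, 0 and 0.270 CPM against 8.29, 2.13 and 9.65 CPM. The fold rests on the 4 counts of untreated replicate 3: Cthrc1 had a log2 fold change of 6.07 (SE 0.98, interval 3.84 to 8.30) with it and 9.58 without it, when the untreated group had no count left and the fitted value is no measure of size. The call was lost when any 1 library other than doxycycline replicate 2 was left out (edgeR adjusted p 0.0525 to 0.117). The gene is the shortest of the 10, with 1593 exonic bases, which lowers its counts at a given level.

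Thbs4 had 11, 6 and 29 counts in the untreated libraries and 275, 857 and 148 in the doxycycline libraries. In CPM these are 0.831, 0.377 and 1.96 against 23.0, 58.8 and 9.27. The groups lay apart by a factor of 4.74, and within each group the libraries differed widely, 5.19-fold untreated and 6.34-fold after doxycycline. Thbs4 had a log2 fold change of 4.84 (SE 0.79, interval 3.04 to 6.64). It passed in 5 of the 12 alternative fits, and its value ran from 3.92 without doxycycline replicate 2 to 5.66 without untreated replicate 3. The fits in which it missed the threshold include limma-voom (adjusted p = 0.0913) and edgeR without a filter on low counts (adjusted p = 0.0932).

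**Figure D2:**
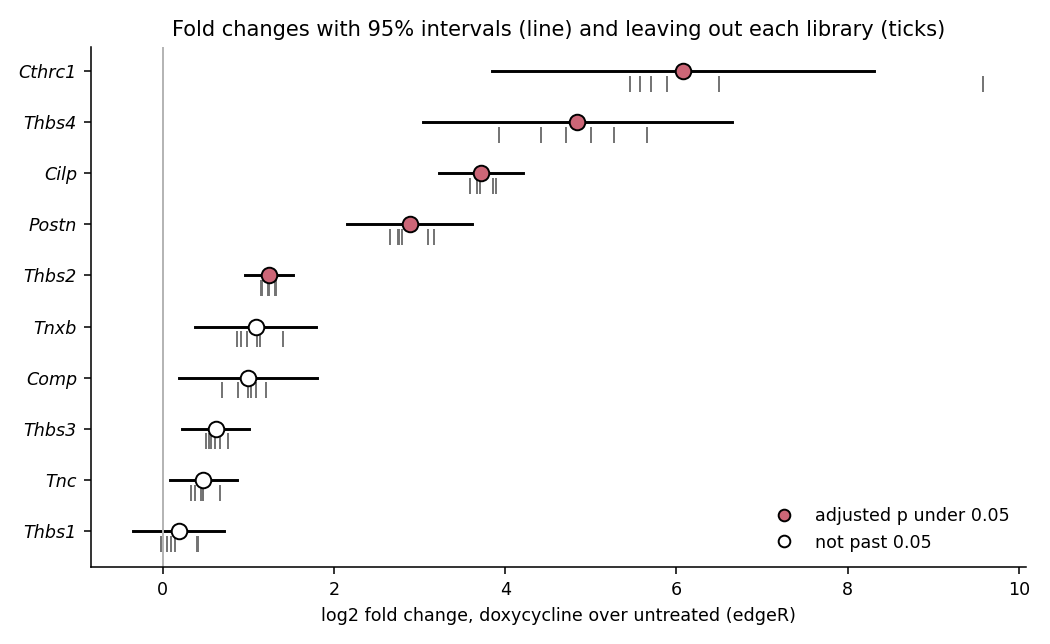
Points are log2 fold changes (doxycycline over untreated, x axis) of the 10 genes from edgeR, lines their 95% intervals, and grey ticks the value with each of the 6 libraries left out. Filled points passed an adjusted p of 0.05 over all genes, and the ticks of Cthrc1 spread from 5.46 to 9.58, those of Cilp from 3.59 to 3.89.

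The other 5 genes did not pass in edgeR. DESeq2 called 2 of them, Thbs3 (adjusted p = 0.0199) and Tnxb (adjusted p = 0.00690), and so did edgeR with offsets for GC content and length (adjusted p = 0.0388 and 0.0233). Comp was at 2.64, 2.39 and 1.96 CPM in the untreated libraries and at 4.36, 6.38 and 3.20 CPM in the doxycycline libraries. Its groups lay apart, but the interval of its log2 fold change (0.99, SE 0.35) ran from 0.19 to 1.80. Thbs3 was at 23.8, 29.2 and 26.6 CPM against 43.8, 31.8 and 46.6 CPM. These groups were also apart, by no more than 1.09-fold between the nearest libraries (log2 fold change 0.62, SE 0.17). Thbs3 also passed without doxycycline replicate 2 (0.76, edgeR adjusted p = 0.00690). Thbs3 shares 318 of its 4823 exonic bases with Mtx1 on the opposite strand, and whether the counting told the strands apart is not given in the sources used here.

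The tenascins had 2 doxycycline libraries above the untreated range and 1 inside or below it. Tnc was at 163, 163 and 164 CPM in the untreated libraries, the tightest of the 10 genes, and at 254, 159 and 268 CPM after doxycycline (log2 fold change 0.47, SE 0.17). Tnxb was at 26.4, 25.8 and 21.2 CPM against 63.6, 26.3 and 65.9 CPM (log2 fold change 1.08, SE 0.31). For both genes the library inside or below the range was doxycycline replicate 2. Without that library the log2 fold changes were 0.67 for Tnc and 1.40 for Tnxb, and both genes passed (edgeR adjusted p 6.35e-04 and 3.88e-04).

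Thbs1 showed no separation of the groups. It was at 109.5, 104 and 161 CPM in the untreated libraries and at 151, 96.8 and 179 CPM in the doxycycline libraries. Replicate 3 was high and replicate 2 low in both groups. Thbs1 had a log2 fold change of 0.19 (SE 0.23, interval -0.35 to 0.72), and it was -0.02 without doxycycline replicate 3. Thbs1 is abundant in platelets, and the summed level of 8 platelet and megakaryocyte markers was 66.8 to 69.2 CPM in untreated and 66.8 to 98.4 CPM in doxycycline libraries, with no marker past the threshold (1 of 5 tested at an unadjusted p under 0.05 in edgeR, none adjusted in DESeq2 or limma-voom).

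Summed per kb, the 5 thrombospondins gave 30.3, 29.7 and 40.1 CPM per kb in the untreated libraries and 58.7, 55.6 and 57.7 in the doxycycline libraries. The total was nearly the same in the 3 doxycycline libraries, while its make-up was not. Thbs1 made up 59.6%, 57.8% and 65.9% of the sum untreated and 42.3%, 28.7% and 51.1% after doxycycline. Thbs4 made up 0.835%, 0.386% and 1.48% untreated and 11.9%, 32.2% and 4.89% after doxycycline. Doxycycline replicate 2 had the smallest part of Thbs1 and the largest of Thbs4. The ratio of Thbs2 to Thbs1, which compares the trimer genes within each library, was 0.340, 0.324 and 0.261 untreated and 0.658, 0.816 and 0.498 after doxycycline, with no overlap.

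**Figure D3:**
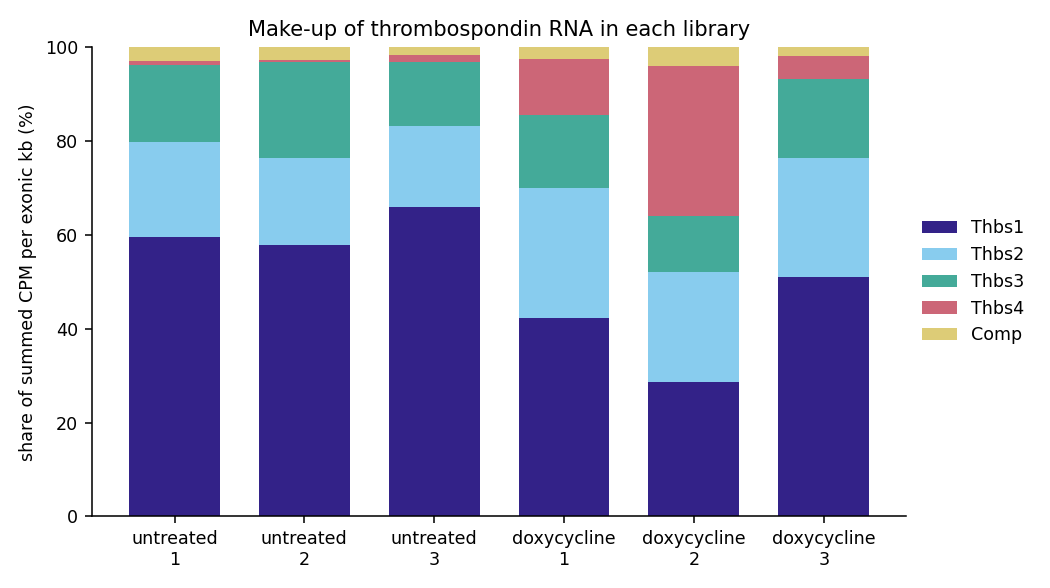
Bars show the share (%) of each thrombospondin gene in their summed level (CPM per exonic kb) for every library. Thbs4 grows from at most 1.48% in untreated libraries to 32.2% in doxycycline replicate 2, where Thbs1 is at 28.7%.

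The 3 doxycycline libraries did not come in the same order for all genes. Thbs1, Thbs3, Tnc, Tnxb and Cthrc1 were highest in replicate 3, then replicate 1, and lowest in replicate 2. This order was found in 19.5% of all genes tested and 28.7% of the genes that passed as higher. Postn and Thbs2 were highest in replicate 1 and also lowest in replicate 2. Their order was found in 21.0% of all genes tested and 17.3% of those that passed as higher. So 7 of the 10 genes were lowest in replicate 2, against 40.5% of all genes tested and 46.1% of those that passed as higher. Thbs4 and Comp ran the other way, with replicate 2 highest and replicate 3 lowest (15.7% of genes tested), and Cilp went from replicate 1 through replicate 2 to replicate 3. Relative to the mean of the 3 libraries, doxycycline replicate 2 was at 1.33 for Thbs4 and at -1.34 for Cthrc1 in log2 units.

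**Figure D4:**
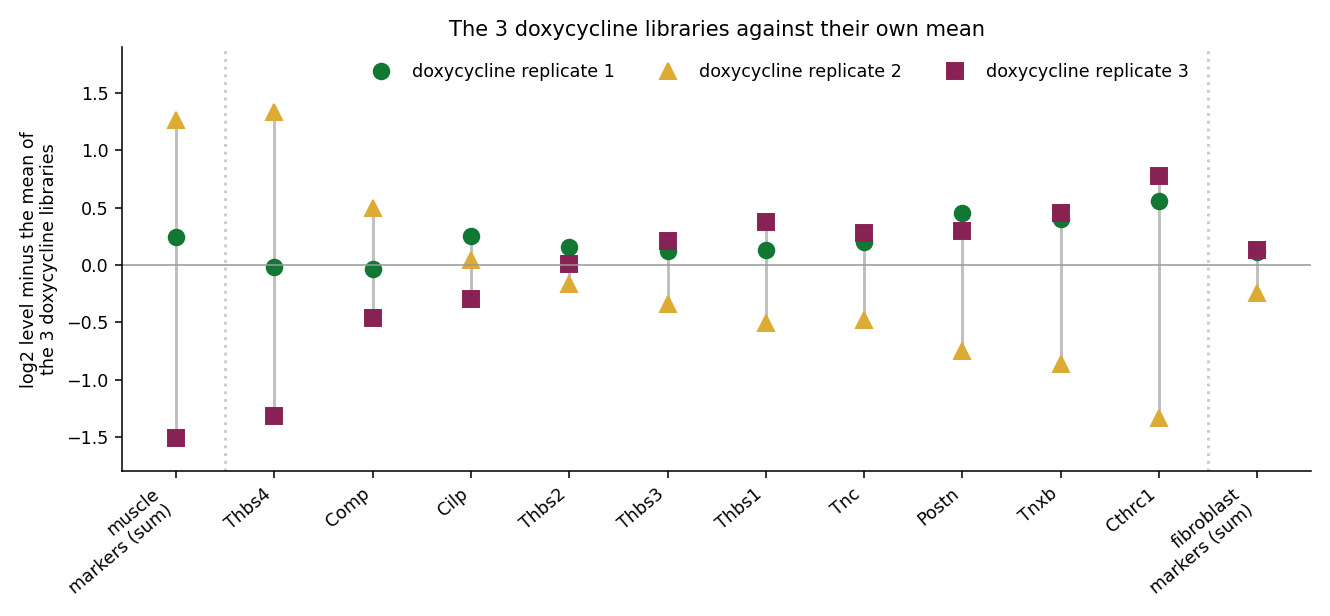
For each gene, and for the summed skeletal muscle and fibroblast markers at the ends, points give the log2 level in the 3 doxycycline libraries minus their mean. Replicate 2 (triangles) is the highest for the muscle sum, Thbs4 and Comp and the lowest for Thbs2, Thbs3, Thbs1, Tnc, Postn, Tnxb, Cthrc1 and the fibroblast sum. Without Col1a1 and Col1a2, which is not plotted, the fibroblast sum was highest in replicate 2.

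Markers of other cell types moved in the same libraries. In edgeR, skeletal muscle markers were higher in 10 of 15 tested (14 in DESeq2 and 1 in limma-voom; median log2 fold change 3.60), and the sum of the 16 on the list was 84.2, 235 and 102 CPM untreated and 1515, 3089 and 449 CPM after doxycycline. Thbs4 and Comp shared the order of that sum within the doxycycline group. Per 100 CPM of summed muscle markers, Thbs4 was at 0.987, 0.160 and 1.93 CPM untreated and at 1.52 to 2.06 CPM after doxycycline. The groups overlapped in this ratio, and untreated replicate 2 had the most muscle RNA and the least Thbs4 of its group. Among the doxycycline libraries the muscle sum ran from 449 to 3089 CPM, and Cilp and Thbs2 differed by no more than 1.46-fold. The part of muscle RNA in the values of Thbs4, Comp, Cilp, Thbs2 or the other members was not tested.

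Fibroblast markers were higher in 5 of 12 in edgeR (Lum, Dcn, Dpep1, Mfap5 and Lrrc15; median 1.40), 7 in DESeq2 and 3 in limma-voom. None was lower in edgeR (1 at an unadjusted p under 0.05), 1 in DESeq2 and 0 in limma-voom. Pi16 was below its untreated range in every doxycycline library (means 35.1 and 19.8 CPM, log2 fold change -0.83, edgeR adjusted p = 0.114). Pdpn was also negative (-0.13). Lum, Dcn and Mfap5 are counted again below in the lists of matrix genes. The sum of the 12 markers was 526, 507 and 569.9 CPM untreated and 1032, 808 and 1045 CPM after doxycycline, lowest in doxycycline replicate 2. Per 100 CPM of that sum, Postn was at 3.65, 2.64 and 2.14 CPM untreated and at 13.7, 7.57 and 12.1 CPM after doxycycline. Cilp was at 1.16, 0.930 and 0.710 against 7.44, 8.24 and 5.02. Both genes were therefore also apart relative to the fibroblast sum, whereas Tnxb (3.73 to 5.10 against 3.25 to 6.31) overlapped and Tnc (28.8 to 32.2 against 19.6 to 25.7) was below its untreated ratio. Without the collagen genes Col1a1 and Col1a2 the fibroblast sum was 275 to 288 CPM untreated and 446 to 499 CPM after doxycycline, highest in doxycycline replicate 2; Postn and Cilp still lay apart relative to it, and Tnc overlapped. The part of fibroblast RNA in these values was not tested. Macrophage markers were higher in 3 of 9 in edgeR (Mrc1, Cd163 and Emr1), with a sum of 352 to 415 CPM untreated and 477 to 636 CPM after doxycycline. That sum ran in the order replicate 3, 1, 2 found in 5 of the 10 matrix genes and in 28.7% of all genes that passed as higher. The summed fibroblast, Schwann cell, and hepatoblast and biliary markers had the same order, the fibroblast sum only with Col1a1 and Col1a2 in it. Endothelial markers were higher in 2 of 7 (Tek and Cdh5; edgeR), with a sum of 251 to 281 against 345 to 388 CPM. The groups did not overlap in the macrophage or the endothelial sum, and the part of either in the members' values was not tested. In bulk tissue, more cells of a type and more RNA per cell cannot be told apart.

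Markers of tendon and cartilage, from which Thbs4, Comp and Cilp are best known, differed widely in level. The sum of 10 tendon and fascia markers was 112 to 117 CPM untreated and 190.3 to 219 CPM after doxycycline, with no overlap. Of these 10 markers 7 could be tested, and Fmod, Col11a1 and Dpt were higher in edgeR (median 0.72). Dpt had 639 to 1340 counts per library, Scx 320 to 516 and Mkx 327 to 569. Tnmd, the most specific tendon marker on the list, had 0, 3 and 1 counts untreated and 1, 10 and 0 counts after doxycycline, and Kera had at most 4. Of 9 cartilage markers only 2 could be tested and neither passed in edgeR, DESeq2 or limma-voom (1 at an unadjusted p under 0.05 in edgeR). Sox9, which other cell types also express, had 382 to 504 counts per library, and Matn1, Lect1 and Ucma had 0 to 3. Col2a1 had 10, 12 and 11 counts untreated and 25, 67 and 20 after doxycycline (log2 fold change 1.81, edgeR adjusted p = 0.0873). Its doxycycline order, replicate 2, 1, 3, was that of Thbs4 and Comp (15.7% of genes tested and 21.4% of those that passed as higher). Matn3 had 3, 7 and 4 counts against 7, 18 and 15. In CPM the groups lay apart for Col2a1 and Matn3, as for 15.2% of all genes tested, and overlapped for the other cartilage markers. The part of tendon or cartilage RNA in the members' values was not tested. Acan, the large proteoglycan of cartilage, had 4, 4 and 5 counts untreated and 75, 4 and 151 after doxycycline.

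Of 20 tested collagens, proteoglycans, enzymes and other partners in the matrix, 10 were higher in edgeR (12 in DESeq2 and 8 in limma-voom) and none lower (0 lower at an unadjusted p under 0.05, and 0 in DESeq2 and limma-voom), with a median of 0.95. The 4 with the smallest p were the proteoglycan genes Lum (log2 fold change 2.26, SE 0.17, edgeR adjusted p = 0.00174), Dcn (2.22, adjusted p = 0.00519) and Ogn (1.17, adjusted p = 0.0075) and the secreted protein gene Ccdc80 (0.98, adjusted p = 0.0075). Fmod, Lox, Col12a1, Col14a1, Col5a2 and Vcan also rose, and Fmod is counted among the tendon markers too. Fn1, which encodes fibronectin, was at 525 ± 17.6 and 564 ± 98.7 CPM and did not pass (adjusted p = 0.659). The count was 2, 6 and 4 without untreated replicates 1, 2 and 3.

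Receptors did not move together. Of 25 tested (median 0.00107), Cacna2d1, the calcium channel subunit that binds thrombospondins, rose by 0.80 in log2 terms, 75.5 ± 8.72 CPM untreated and 132 ± 26.3 CPM after doxycycline (adjusted p = 0.0288 in edgeR). Vldlr, a lipoprotein receptor that binds thrombospondins, fell by 0.55 in log2 terms, 259.8 ± 16.3 CPM untreated and 177 ± 28.1 CPM after doxycycline (adjusted p = 0.0343 in edgeR). In edgeR, neither passed without any 1 untreated library or without doxycycline replicate 1 or 3. With the replicate block, and with offsets for GC content and length, 0 receptors passed as higher and 1 as lower, so the call of Cacna2d1 was lost there too. The other 23 did not pass in edgeR, among them the CD47 gene (Cd47, 0.04), the integrin subunits Itgav (0.19), Itgb1 (0.05) and Itgb3 (0.53), and Cd36 (1.01). DESeq2 called 3 receptors higher, Cacna2d1, Cd36 and the integrin subunit gene Itga4.

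Among 17 other matricellular genes tested, 3 rose in edgeR (5 in DESeq2, and in limma-voom 1, Nov): the microfibril gene Mfap5 (log2 fold change 4.09, edgeR adjusted p = 0.0208), the CCN family gene Nov (1.78, adjusted p = 0.021) and Spon1 (2.13, adjusted p = 0.0326). The median was 0.35, none was lower in edgeR (0 at an unadjusted p under 0.05), DESeq2 or limma-voom, and the abundant Sparc (168 ± 11.9 and 190.1 ± 18.7 CPM) did not pass. None of the 3 passed when any 1 untreated library was left out. Of 14 regulators of these genes, 3 rose in edgeR (4 in DESeq2 and 3 in limma-voom): the mesenchymal transcription factor gene Prrx1 (1.80, adjusted p = 0.00901), Tgfb2 (1.20, adjusted p = 0.0241) and Tgfb3 (0.48, adjusted p = 0.0323). The median of the 14 was 0.08 (none lower, with 1 lower at an unadjusted p under 0.05 in edgeR and 0 in DESeq2 and limma-voom). Scx, the tendon transcription factor gene, was at 0.44 (adjusted p = 0.118), and Tgfb1 at -0.42 (adjusted p = 0.22). The count of regulators was 0, 1 and 0 without untreated replicates 1, 2 and 3.

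Of the 4 close relatives of the 10 genes, 2 could be tested, Tgfbi and Tnr, and neither passed in edgeR or limma-voom. Both were higher at an unadjusted p under 0.05 in edgeR, and DESeq2 called Tgfbi higher. Every doxycycline library lay above every untreated one for Tgfbi, Tnr and Cilp2, while the groups overlapped for Tnn. Of all genes tested, 15.2% lay apart in this direction, and Cilp2 did so on few counts. Tgfbi, the paralog of Postn, was at 54.6 CPM untreated and 73.9 CPM after doxycycline (means of 3; log2 fold change 0.44, edgeR adjusted p = 0.0882). Postn was 0.132, 0.106 and 0.114 of Tgfbi per kb untreated and 0.764, 0.375 and 0.776 after doxycycline. The tenascin gene Tnr was at 1.10 ± 0.139 and 2.44 ± 0.512 CPM (log2 fold change 1.15, adjusted p = 0.0989). Tnn, a further tenascin gene, had 2, 3 and 7 counts untreated and 29, 0 and 30 after doxycycline, with no read in doxycycline replicate 2, in which Tnc and Tnxb were also lowest, and it did not pass the filter. Cilp2, the paralog of Cilp, had 5, 9 and 6 counts against 8, 10 and 13 and was too low to be tested.

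For each of the 5 genes that passed, the 2 most similar profiles were sought among 13510 other genes by the root mean square difference of log2 CPM over the 6 libraries, after centring each gene on its mean. Thbs4 was nearest to the striated muscle genes Xirp1 (0.19) and Lmod2 (0.70). Postn was nearest to the growth factor gene Igf1 (0.20) and the collagen gene Col12a1 (0.27). Cilp was nearest to C1qtnf3 (0.20) and the integrin-like gene Itgbl1 (0.32), and Cthrc1 to the ephrin receptor gene Epha3 (0.64) and Tmem100 (0.68). Thbs2 was nearest to Rwdd3 and Ddit4l (0.12 each). The median difference to all genes compared was 0.67 for Thbs2, 1.48 for Postn, 1.87 for Cilp, 2.47 for Thbs4 and 2.58 for Cthrc1. None of the 5 had another of the 5 among its 2 nearest, which with 13510 genes compared says little about how they differ. The closest 2 of the 5 were Postn and Cilp, 0.61 apart. All these differences include the contrast between the groups, which chose the genes.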

How the data were processed

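Read counts per gene were deposited by the authors for 3 untreated and 3 doxycycline libraries, 1 column each. They were made with TopHat2 2.0.8, TopHat and HTSeq on build mm9, per the submitters' processing notes. How strand, multiply mapped reads and duplicates were handled is not stated. The 90 rows without a gene name (0.0361% to 0.0402% of counts) were left out. No 2 replicates agreed within sampling noise. Chi-square over its degrees of freedom was 5.40 to 8.69 for untreated pairs and 13.1 to 31.8 for doxycycline pairs. Both pairs with doxycycline replicate 2 were the highest (31.0 and 31.8).

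Counts were filtered with filterByExpr, scaled by TMM and tested with edgeR 4.0.16 (R 4.3.3; robust quasi-likelihood, two-sided, Benjamini-Hochberg over 14809 genes, threshold 0.05). DESeq2 1.42.0, limma 3.58.1, other normalization and filter settings and leaving out each library were alternatives. The fit was tested on simulated data. CPM uses TMM-adjusted totals. log2 CPM has a prior count of 2. Exonic lengths come from GENCODE vM21 (GRCm38), promoters from RefSeq.

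Named are the 10 genes, their 4 relatives, up to 4 passing members per partner list, St18, and 2 nearest profiles per passing gene; other genes named were chosen after their values were seen. Members and lists were chosen with earlier results of these data known. Col6a3 of the matrix partner list was not matched. The GC content and length offsets were added after seeing the data. Totals of 12090309 to 16169043 counts set the precision of low genes.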

Additional observations from a re-analysis of the deposited data

How the results depend on the processing

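Of the 10 genes, 5 passed as higher in edgeR, against 2.84% of all genes. The number was 2 to 8 when 1 library was left out. It was 2 without each untreated replicate, when 0.0721% to 0.179% of all genes passed. It was 3 without doxycycline replicate 1 (1.19% of all genes), 4 without doxycycline replicate 3 (1.06%) and 8 without doxycycline replicate 2 (8.18%). It was 7 with DESeq2 (5.99% of all genes) and 4 with limma-voom (1.69%) or with no filter on low counts (2.15%). With offsets for GC content and length, an alternative chosen after seeing the data, it was 7 (2.04%). All 10 fold changes stayed positive under every alternative except that of Thbs1 without doxycycline replicate 3. Over the partner lists, 17 genes were higher and 1 lower. These numbers ran from 2 to 32 and from 0 to 2 when 1 library was left out. The cause of these changes was not tested. Same-numbered libraries of the 2 groups did not deviate together (correlations -0.00976, -0.0747 and 0.0155), so the numbers are not taken as pairs. With the replicate block, 4 of the 10 genes passed (1.45% of all genes), Thbs4 not among them, and 14 partner genes were higher. Genes with few counts, above all Cthrc1 with 4 untreated counts, are limited by depth.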
